A study of Mus musculus with 24 samples.

Results

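Fatty acid synthesis and uptake genes were followed as the lipid supply for surfactant, the lipid and protein film of the alveoli. The list held 10 mouse genes: Fasn, Acaca, Acly, Scd1, Scd2, Elovl6, Srebf1, Lpl, Cd36 and Fabp5. Members were chosen by name, as every probe set to which the platform annotation gave one of these symbols alone. This found 15 probe sets for 9 genes, of 12422 probe sets and 8251 annotated genes in all. Acaca was not analysed here. The arrays are an Affymetrix mouse design, on which a probe set is a group of short probes read as one signal. There were 22 arrays of 11 cell lines and 2 arrays of control cells. The lines (A2B1, A2C12, B3, betaD5, betaD10, cRAF_cMYC, gammaA3, gammaA7, gammaB8, gammaD1 and gammaD12) were grown out of lung tumours of 8-month-old mice carrying both the c-Myc and the c-Raf transgene. The control was alveolar type II epithelial cells taken from healthy non-transgenic mice, whose age the labels do not give. Lines were kept in medium with fetal calf serum for up to 50 passages, so the effects of the transgenes, of tumour growth and of long culture on a gene cannot be told apart. The labels do not name the promoters of the transgenes or say whether a line is a single clone. One label spells gammaB8 as gammaA8, and the title's spelling is used here. Of the lines, 5 had 3 arrays, 1 had 2 and 5 had 1. Each line had 1 array with no replicate number in its title, called the unnumbered array, and it was the only array of the 5 single-array lines (betaD5, betaD10, gammaA3, gammaD1 and gammaD12).

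Type II cells make much of the fatty acid of surfactant phospholipid themselves. In the cytosol ATP citrate lyase (Acly) releases acetyl-CoA from citrate, acetyl-CoA carboxylase (Acaca) turns it into malonyl-CoA, and fatty acid synthase (Fasn) builds palmitate from these. Elovl6 lengthens palmitate, and the stearoyl-CoA desaturases Scd1 and Scd2 put a double bond into the product. Srebf1 encodes SREBP-1, the transcription factor that drives these enzymes in many tissues. The alternative is uptake: lipoprotein lipase (Lpl) frees fatty acids from lipoproteins, the membrane receptor Cd36 helps to take them in, and Fabp5 binds them inside the cell. Cd36, Lpl and Fabp5 are also made by macrophages, which lie beside type II cells in the alveolus.

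The promoters of Fasn, Elovl6 and Cd36 are shown because they stand for the behaviours found below: Fasn and Elovl6 went together across the lines, and Cd36 fell in each of them. Each window runs from 250 bases before to 50 bases after a transcription start in RefSeq's GRCm38.p6 annotation, read 5′ to 3′ on the gene's strand. The windows are chr11:120824498-120824797 (minus strand) for Fasn, chr3:129532136-129532435 (plus strand) for Elovl6 and chr5:17835847-17836146 (minus strand) for Cd36. Capitals mark CCAAT, the box read by the factor NF-Y, and GGGCGG, the Sp1 box, on either strand.
Fasn: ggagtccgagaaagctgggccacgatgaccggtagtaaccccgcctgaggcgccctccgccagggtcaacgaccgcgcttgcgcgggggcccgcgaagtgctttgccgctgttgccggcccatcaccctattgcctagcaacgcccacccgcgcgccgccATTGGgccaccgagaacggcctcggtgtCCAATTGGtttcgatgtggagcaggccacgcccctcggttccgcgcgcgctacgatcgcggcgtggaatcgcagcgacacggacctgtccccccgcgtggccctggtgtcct
Elovl6: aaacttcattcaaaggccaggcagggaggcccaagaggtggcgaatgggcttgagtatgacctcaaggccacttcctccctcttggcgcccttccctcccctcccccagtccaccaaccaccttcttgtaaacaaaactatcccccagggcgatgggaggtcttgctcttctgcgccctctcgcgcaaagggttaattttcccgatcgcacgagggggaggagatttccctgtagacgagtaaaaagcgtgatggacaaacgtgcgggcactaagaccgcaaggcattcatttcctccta
Cd36: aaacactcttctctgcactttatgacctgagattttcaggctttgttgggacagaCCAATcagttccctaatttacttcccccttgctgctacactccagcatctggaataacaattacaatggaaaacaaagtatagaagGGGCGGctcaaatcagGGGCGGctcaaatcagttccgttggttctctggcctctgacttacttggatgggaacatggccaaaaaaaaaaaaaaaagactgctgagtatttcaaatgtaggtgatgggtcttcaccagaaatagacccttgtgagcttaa

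In the Fasn window CCAAT began 62 bases before the start, and its reverse complement began 90 and 59 bases before it, the last overlapping the first. The Cd36 window held CCAAT at 195 bases and GGGCGG at 109 and 93 bases before the start. None of the motifs searched was found in the Elovl6 window. CCAAT was present in 37.4% and GGGCGG in 35.7% of all 32851 promoter windows of this length. The sterol response element TCACNCCAC (1.24% of windows) and the E-box CACGTG read by Myc (7.15%) were found in none of the 8 windows of the 6 listed genes in the table: Fasn, Acaca, Acly, Elovl6, Srebf1 (3 starts) and Cd36. A letter match is a description of the window only.

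The uptake genes Lpl, Cd36 and Fabp5 were lower in the tumour lines, the elongase Elovl6 and the desaturase Scd2 were higher, and Scd1 and Srebf1 were lower. Fasn and Acly were not called. The rise of Scd2 was seen with its brightest probe set and not with its other one. The calls of Scd1, Scd2, Srebf1 and Fabp5 were each lost without 1 of the controls. Of the 9 tested members, 2 were called higher and 5 lower, against 16.5% called higher, 21.4% called lower and 37.8% called in all of the 7670 tested probe sets. The median log2 difference of the 9 was -1.17, and that of all tested probe sets -0.05. Cd36 entered the test through the controls alone, as 330 of 5825 tested genes did. Of the other 8 members 2 were called higher and 4 lower, with a median of -0.43. Of the other 5495 genes 974 were called higher and 924 lower, with a median of 0.06. Elovl6 entered the test through the tumour arrays alone. A call needed a 2-fold change or more together with an adjusted p below 0.05. Differences are of log2(signal + 32), lines minus control, from limma on 11 line means and 2 control arrays with Benjamini-Hochberg adjustment over all tested probe sets. On this scale differences among very low signals are compressed, so a fold against a signal near the floor understates the ratio of signals. Whether arrays of 1 line are separate cultures, or the controls separate animals, is not stated. The p-values therefore reflect only how far these samples scatter, which may partly be technical. Lines and controls shared a variance in this fit, and the 11 line means weighed far more in it than the 2 controls. For Fasn, Scd1, Scd2, Srebf1, Lpl, Cd36 and Fabp5 the log2 SD was larger between the controls than among the line means. It was smaller for Acly and Elovl6. Where it was larger, the SE and p-value understate the uncertainty left by the 2 controls.

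**Figure D1:**
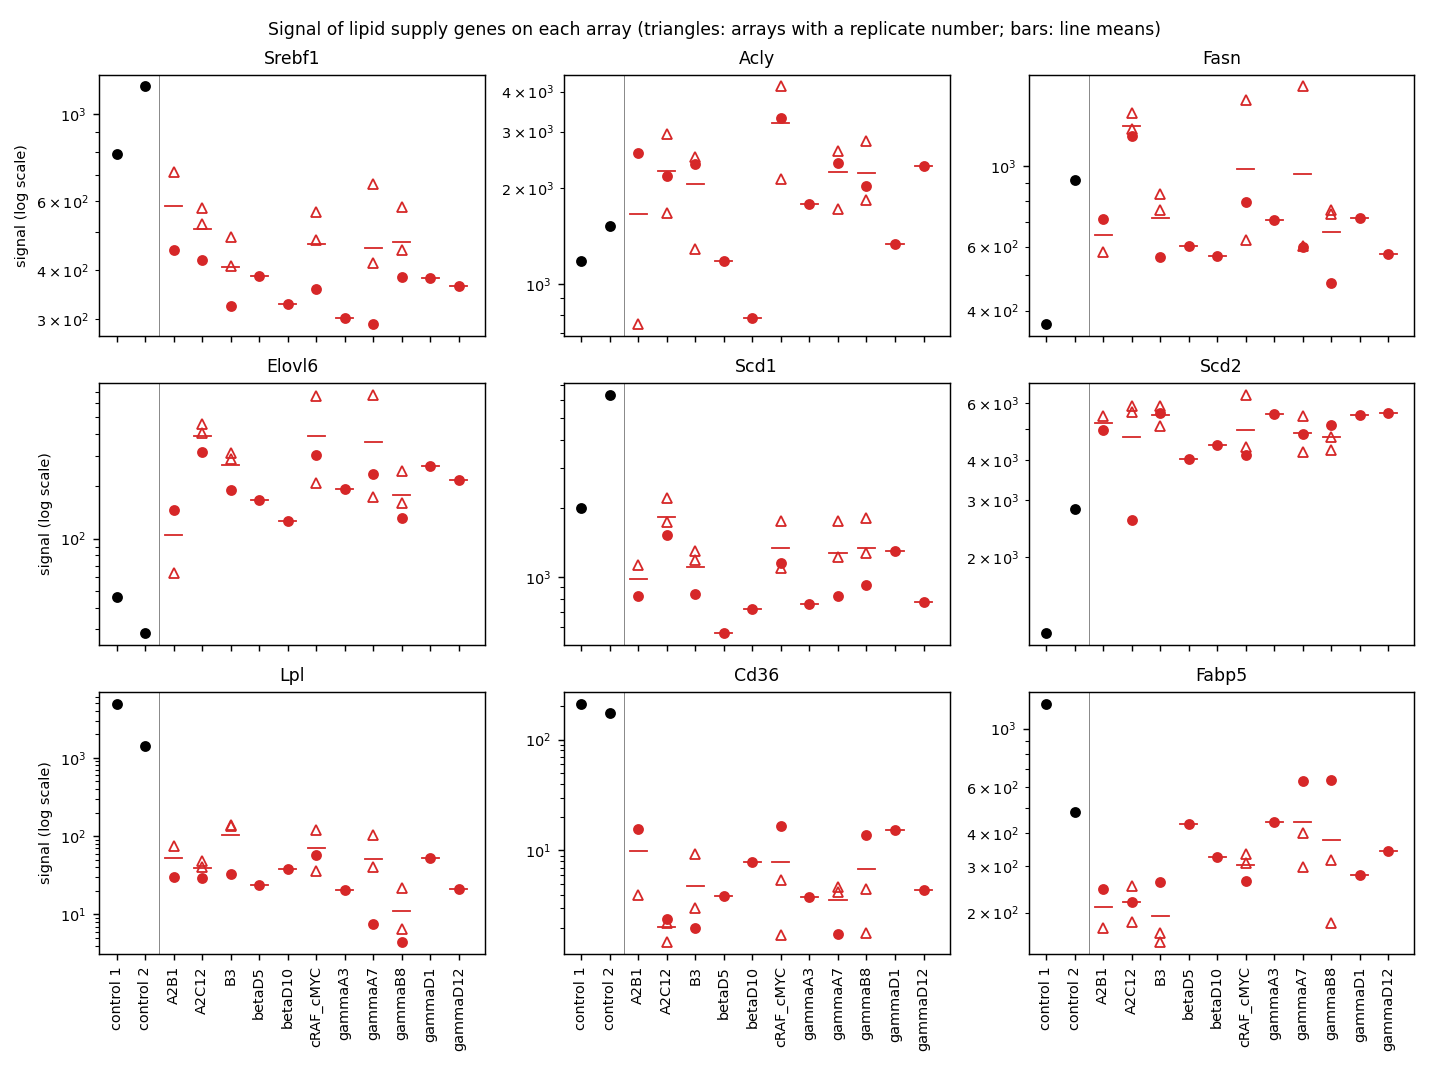
Signal of each member's main probe set (y axis, log scale, Affymetrix signal units) on the 2 control arrays (black) and on the arrays of the 11 lines (red; open triangles are arrays with a replicate number, filled circles arrays without one, bars the mean of a line). Lpl and Cd36 lie far below both controls on all 22 tumour arrays, Elovl6 lies above both on all 22, and Acly and Fasn overlap the controls.

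**Figure D2:**
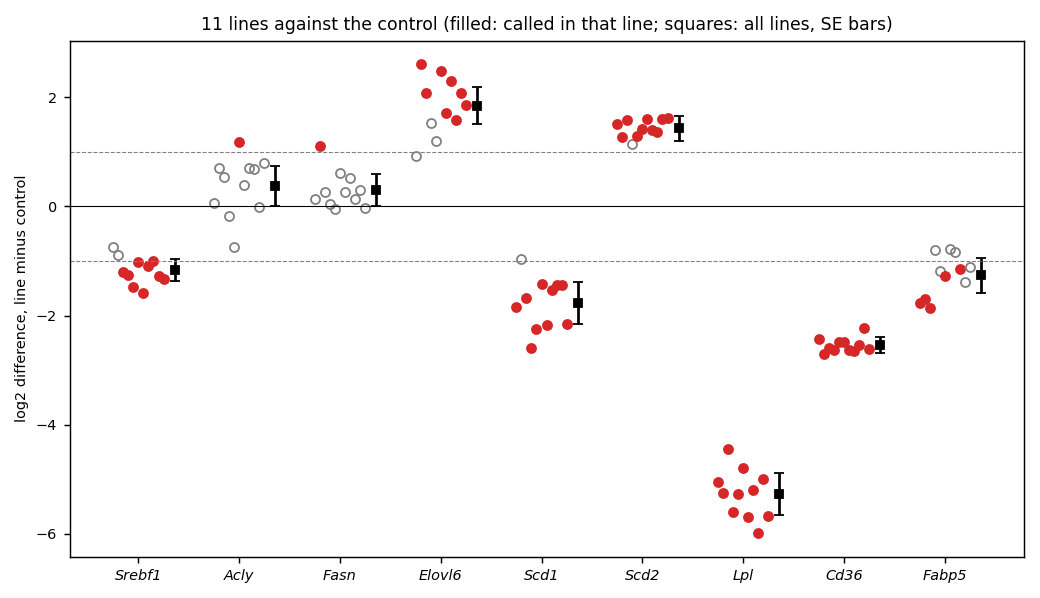
Log2 difference of each of the 11 lines from the control (y axis) for each member (x axis); filled points were called in that line, open points were not, dashed lines mark 2-fold, and black squares give the difference of all line means with its SE. Lpl and Cd36 were called in 11 of 11 lines, and Fasn and Acly in 1 line each.

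The control arrays differed from each other, and the members moved between them. The median of all probe sets lay between 53.2 and 75.5 on each tumour array, and was 93.8 on control 1 and 107.7 on control 2. Control 2 was higher for 7 of 7 type II markers on the array, whose summed signal was 1452 on control 1, 29812 on control 2 and 43.8 to 102 in the lines. Control 1 was higher for 12 of 15 macrophage and myeloid markers, with sums of 53687 and 32859 on controls 1 and 2 and of 775 to 2150 in the lines. The defining type II marker Sftpc gave 787 and 11196 on controls 1 and 2, and the macrophage receptor Marco gave 1626 and 79.4. Control 2 was also higher for 8 of 8 endothelial, 9 of 9 lymphocyte and 3 of 3 club cell markers, and control 1 for 6 of 9 fibroblast markers. Of the 9 members, 5 lay at least 2-fold apart between the controls in log2 level, against 12.4% of all tested probe sets. The synthesis genes Scd1 (3.14-fold in signal), Fasn (2.49-fold) and Scd2 (2.43-fold) were higher on control 2. The uptake genes Lpl (3.42-fold) and Fabp5 (2.57-fold) were higher on control 1. The remaining members were closer: Srebf1 and Acly were higher on control 2 and Elovl6 and Cd36 on control 1, by 1.22 to 1.60-fold. With 1 array for each control preparation there is no test of these differences. In such bulk samples fewer cells of a type and less RNA per cell cannot be told apart.

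**Figure D3:**
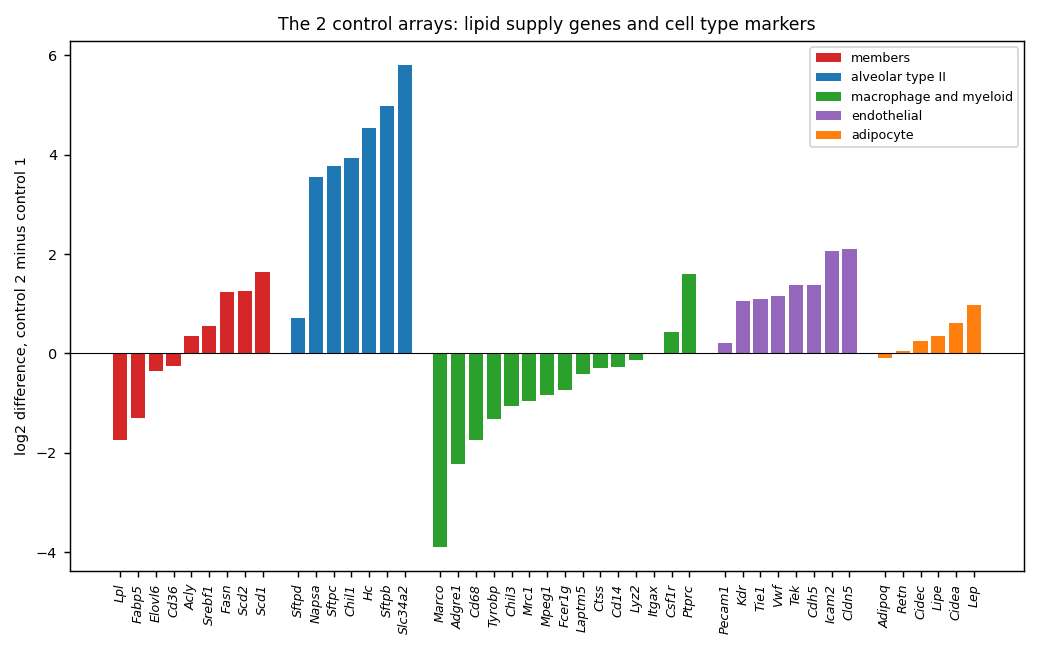
Log2 difference of control 2 minus control 1 (y axis) for the members (red) and for the type II (blue), macrophage and myeloid (green), endothelial (purple) and adipocyte (orange) markers on the array. Lpl and Fabp5 lie on the side of control 1 with 12 of the 15 myeloid markers. Scd1, Scd2 and Fasn lie on the side of control 2 with all 7 type II, all 8 endothelial and 5 of 6 adipocyte markers.

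Srebf1, the regulator of the pathway, was lower in the lines. Its signal was 791 and 1176 on controls 1 and 2, and 291 at the lowest, 420.3 at the median and 713 at the highest of the 22 tumour arrays. All 22 tumour arrays lay below both controls. The line means were 423 ± 82.6 (SD, n = 11 lines), from 302 in gammaA3 to 581 in A2B1. The log2 difference was -1.17 (SE 0.20, limma adjusted p = 0.000133), a 2.25-fold fall. Set against the control one by one, 9 of 11 lines were called lower, and A2B1 (-0.73) and A2C12 (-0.90) were not. The log2 difference was -0.89 without control 2, -0.81 on numbered arrays only and -0.63 after centring arrays on their medians, all under the 2-fold threshold.

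Within lines Srebf1 was lower on unnumbered arrays than on numbered ones in 6 of 6 lines, by 0.51 in log2 (SE 0.11, limma adjusted p = 0.0106, 17 arrays). At an adjusted p under 0.05 and any fold, 13.3% of tested probe sets differed between the unnumbered and numbered arrays. Scd1 (-0.52, SE 0.13, limma adjusted p = 0.0211) and Lpl (-0.72, SE 0.21, limma adjusted p = 0.0388) were also lower on the unnumbered arrays in 6 of 6 lines. The other 6 members did not pass, with differences between -0.35 (Fasn) and 0.48 (Fabp5). The labels do not explain the missing number. Single-array lines enter every comparison through an unnumbered array.

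Acly and Fasn, the enzymes at the start of the pathway, kept high signals in both kinds of sample. Acly gave 1179 and 1519 on controls 1 and 2 and ran from 747 through a median of 2156 to 4155 on the tumour arrays. Of the 11 line means, 7 lay above both controls, 2 below both and 2 between them, and betaD5 (1179.06 against 1179.3 on control 1) counted as below by a margin of no weight. Its log2 difference was 0.38 (SE 0.36, limma adjusted p = 0.370), and among the lines set against the control one by one it was called higher in cRAF_cMYC (1.18, limma adjusted p = 0.0271). The lowest line was betaD10 with 784 and the highest cRAF_cMYC with 3197, but the arrays of A2B1 alone gave 747 and 2570.

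Fasn gave 367 and 913 on controls 1 and 2, and 476, 717 and 1655 at the lowest, median and highest tumour array. Over the lines the mean was 765 ± 222 (SD, n = 11 lines), and on the log2 scale 10 of 11 lay between the controls. As plain mean signals, gammaA7 (953) and cRAF_cMYC (980) also passed control 2, each through 1 array. The log2 difference was 0.30 (SE 0.29, limma adjusted p = 0.374). Its sign turned with the control kept: 0.93 without control 2 (limma adjusted p = 0.0297, under the 2-fold threshold) and -0.32 without control 1 (limma adjusted p = 0.423). Only A2C12, with arrays of 1210, 1267 and 1395, was called higher on its own (1.10, limma adjusted p = 0.0379). A single high array also occurred in cRAF_cMYC (1519, beside 796 and 625) and in gammaA7 (1655, beside 599 and 603). In both lines this was replicate 2, which was also the highest array for Elovl6 (660.2 and 669.5).

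Elovl6, which lengthens palmitate to stearate, rose in the lines. Its rise was larger than that of Scd2 in the comparison with both controls, but not without control 2 (1.67 against 2.06 for Scd2) or with an offset of 100 (1.23 against 1.40). The signal was 45.9 and 28.6 on controls 1 and 2, both below those arrays' medians, and 63.2, 226 and 670 at the lowest, median and highest tumour array. Elovl6 thus passed the filter through the tumour arrays alone, of which 21 of 22 exceeded their median, and this favoured a rise. The same held for its other probe set. Every tumour array lay above both controls. Line means averaged 241 ± 102 (SD, n = 11 lines), with a log2 difference of 1.85 (SE 0.35, limma adjusted p = 0.000244), a 3.61-fold rise and the 291st largest among 5825 genes. The other Elovl6 probe set gave 26.9 and 5.18 on the controls and 157 ± 61.2 in the lines, with a log2 difference of 1.92 (SE 0.33, limma adjusted p = 0.000121). By the main probe set 8 of 11 lines were called higher, and A2B1 (0.92), betaD10 (1.21) and betaD5 (1.54) were not. A2C12 (391) and cRAF_cMYC (391) were highest and A2B1 (104) lowest.

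By their brightest probe sets the desaturase Scd1 fell and Scd2 rose, but each call was lost without 1 of the controls, and a second Scd2 probe set did not rise. Scd1 gave 2001 and 6292 on controls 1 and 2, and 565, 1167 and 2216 at the lowest, median and highest tumour array. All tumour arrays but 1, A2C12 replicate 2, lay below both controls. Averaged by line, the signal was 1087 ± 370 (SD, n = 11 lines), and the log2 difference was -1.77 (SE 0.39, limma adjusted p = 0.000910), a 3.41-fold fall. Another Scd1 probe set fell by 1.94 (SE 0.44, limma adjusted p = 0.00113), and a further one was not tested, with signals of 6.81 to 48.7 on the tumour arrays. Scd1 was called lower in 10 of 11 lines and not in A2C12 (-0.97), the line with the highest mean (1826). The size of the fall rested on the control kept: -2.59 without control 1 and -0.95 without control 2, where it was not called (limma adjusted p = 0.0855).

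Scd2 gave 1159 and 2817 on the controls, and 2607, 5131 and 6366 at the lowest, median and highest tumour array. Of the 22 tumour arrays 21 lay above both controls, the exception being the unnumbered array of A2C12. Scd2 averaged 5020 ± 523 (SD, n = 11 lines), a narrow range of 4020 to 5615. The log2 difference was 1.44 (SE 0.23, limma adjusted p = 5.7e-05), a 2.71-fold rise, and 10 of 11 lines were called higher, betaD5 (1.14) being the exception. The log2 SD of Scd2 was 0.16 over the line means and 0.89 between the controls, so this SE understates the spread of the controls. Without control 1 the log2 difference was 0.81 and under the 2-fold threshold. The other Scd2 probe set did not rise: its signal was 898 on control 1, 1582 on control 2 and 871 ± 87.5 over the lines, a log2 difference of -0.46 (SE 0.18, limma adjusted p = 0.0342), under 2-fold. Its name ends in _f_at, the platform's mark for probes shared with similar sequences. Scd1 and Scd2 are closely similar neighbouring genes, and whether either probe set reads both was not tested. The mean of the 2 Scd2 probe sets gave 0.49, not called.

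Of the members, the uptake gene Lpl fell furthest. Its probe set gave 4910 and 1437 on controls 1 and 2, and 4.48, 36.7 and 140.4 at the lowest, median and highest tumour array. No tumour array came near either control, and 17 of 22 lay below their own array's median signal. The line means were 43.7 ± 26.4 (SD, n = 11 lines). The log2 difference was -5.27 (SE 0.38, limma adjusted p = 1.9e-08), a 38.6-fold fall, and 19 of 5825 genes fell further. A second Lpl probe set, with 1604 and 406 on the controls and 17.3 ± 8.02 in the lines, fell by 4.13 (SE 0.33, limma adjusted p = 4.8e-08). Both probe sets were called in 11 of 11 lines. The 5 tumour arrays above their median would have taken the main probe set through the filter without the controls. The second was above the median on no tumour array, so it was tested only through the controls and had to be lower.

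Cd36 gave 209.7 and 172 on controls 1 and 2, and 1.51, 4.09 and 16.6 at the lowest, median and highest tumour array. All 22 tumour arrays were below their array's median, and the gene was tested only because both controls were above theirs, so it had to be lower in the lines. The line means were 6.38 ± 3.79 (SD, n = 11 lines), with a log2 difference of -2.54 (SE 0.14, limma adjusted p = 8.7e-10), a 5.83-fold fall, called in 11 of 11 lines. With an offset of 1 in place of 32 the log2 difference was -4.96 and with an offset of 100 it was -1.45, since all lines lie near the floor. Its place beside Scd1 moved with the setting: Cd36 fell further with both controls, but less without control 1 (-2.42 against -2.59), after quantile normalization (-2.24 against -2.30) and with an offset of 100 (-1.45 against -1.71). Another Cd36 probe set stayed close to the floor on all arrays (0.401 and 0.717 on the controls, 0.313 to 9.35 on tumour arrays) and was not tested.

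Fabp5, the fatty acid binding protein, gave 1242 and 484 on controls 1 and 2, and 155, 287 and 637 at the lowest, median and highest tumour array. Every line mean lay below both controls, but 2 of 22 arrays, the unnumbered arrays of gammaA7 and gammaB8, lay above control 2. The line means were 324 ± 93.2 (SD, n = 11 lines), from 194 in B3 to 443 in gammaA3 and gammaA7. The log2 difference was -1.26 (SE 0.32, limma adjusted p = 0.00285), a 2.39-fold fall, and 5 of 11 lines were called lower (A2B1, A2C12, B3, cRAF_cMYC and gammaB8). It was -0.61 and not called without control 1 (limma adjusted p = 0.173), and -0.72 and not called after centring arrays on their medians (limma adjusted p = 0.0684).

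Markers of macrophages and of several other cell types were low in the lines, as the uptake genes were. Of 15 such markers on the array 14 were tested, and 10 of these passed the filter only through the controls, so that they had to be lower in the lines. The other 4 were also called lower, with a median log2 difference of -4.04. All 15 stood above the array median on control 1 and 14 on control 2, but only 1, Cd14, on most tumour arrays. Endothelial markers (8 on the array, all higher on control 2) had sums of 804 and 2378 on controls 1 and 2 and of 42.3 to 120.5 in the lines. Club cell markers had sums of 7036 and 21580 on controls 1 and 2 and of 55.7 to 127 in the lines. Lymphocyte markers had sums of 1732 and 5102 on controls 1 and 2 and of 101 to 179 in the lines. Adipocyte markers, of which Adipoq gave 32.3 and 28.2 on the controls, had sums of 428 and 738 on the controls and of 158 to 282 in the lines. Of the 6 adipocyte markers on the array 1 was tested, and it was not called. Fibroblast markers were not low as a list. Their sums were 5505 and 3189 on controls 1 and 2 and 6965 to 27315 in the lines. Of 9 tested, 2 were called higher and 2 lower. The part of any of these cell types in the signals of Lpl, Cd36 and Fabp5 was not tested. Against either control alone, the log2 difference of Lpl was -4.40 (without control 1) or -6.15 (without control 2) and that of Cd36 -2.42 or -2.67.

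Across the 9 members, 66 of 99 pairs of a member and a line were called, against 37.2% of pairs over all tested probe sets. The 66 include 11 pairs of Cd36, whose direction was set by the filter, and 8 of Elovl6, whose direction it favoured. All 11 contrasts share the 2 control arrays. By line, 8 of 9 members were called in cRAF_cMYC (38.1% of all tested probe sets), 7 in B3 (39.8%) and gammaB8 (37.6%), and 6 in A2C12 (40.6%), gammaA3 (38.3%), gammaA7 (37.5%), gammaD1 (37.7%) and gammaD12 (34.4%). A2B1 (31.2%) and betaD10 (34.8%) had 5 and betaD5 (38.6%) had 4. Lines with 1 array have larger errors, so fewer calls there do not show smaller differences. Line means lay outside the range of the controls for 7 of the 9 members, against 55.1% of tested probe sets. They were all above both controls for 2 members (25.4% of probe sets) and all below for 5 (29.7%). The 2 include Elovl6 and the 5 include Cd36, with the same limit from the filter.

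Differences among the lines in these genes did not pass the test in the comparison of all lines. In the moderated F-test over the 11 lines (limma, 12 groups fitted to 24 arrays) 0 of 9 members passed, against 3.42% of all tested probe sets. At an unadjusted p under 0.05 the count of members was also 0. The smallest limma adjusted p was 0.286, for Elovl6, whose other probe set had an unadjusted F-test p of 0.0417 and an adjusted p of 0.214. With the replicate block in the 17 arrays of the 6 lines with several arrays, 1 of 9 members passed (Lpl, limma adjusted p = 0.0482). Of all tested probe sets 17.3% passed there. An unadjusted F-test p under 0.05 was found for 4 members (Scd1, Elovl6, Lpl and Fabp5). The share of all probe sets at that unadjusted threshold was not counted. Arrays of 1 line lay far apart: the highest signal was 3.87 times the lowest for Elovl6 and 13.9 times for Lpl in gammaA7, and 3.44 times for Acly in A2B1. By range of line means in log2, Acly (1.93), Elovl6 (1.69) and Scd1 (1.62) were the most variable members and Cd36 and Scd2 (0.48 each) the least. The order of the lines in the paragraphs above is therefore a description, and no neighbours in it were shown to differ beyond their spread.

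Fasn, Elovl6 and Scd1, the enzymes that make, lengthen and desaturate palmitate, ran in parallel over the 11 line means, and are given because Fasn had the highest correlations among the 36 pairs of members. Pearson's r of log2 levels was 0.79 (Spearman's rho 0.87) for Fasn with Elovl6, 0.79 (rho 0.85) for Fasn with Scd1 and 0.66 (rho 0.77) for Scd1 with Elovl6. Acly, the enzyme before them, had an r of 0.68 (rho 0.69) with Elovl6, above that of Scd1. Its r was 0.56 with Scd1 and 0.53 with Fasn. On the unnumbered arrays alone the r of Acly was lower, at 0.46 with Elovl6, 0.35 with Scd1 and 0.24 with Fasn. Without betaD10 and betaD5, the lines farthest from the Acly median, it was 0.57 with Elovl6 and 0.20 with Scd1. The relation of Acly to these genes thus rested in part on which arrays and lines were kept. Without A2C12 and cRAF_cMYC, the lines farthest from the Fasn median, r was 0.66 for Elovl6 and 0.63 for Scd1 with Fasn. Over the 11 arrays without a replicate number, 1 for each line, the values were 0.71 and 0.70. Srebf1 followed them less closely, with r of 0.60 for Scd1, 0.45 for Fasn, 0.36 for Acly and 0.10 for Elovl6. Without A2B1 and gammaA3, the lines farthest from the Srebf1 median, these were 0.79, 0.81, 0.73 and 0.71. Without the lines farthest from the other gene's median, r was 0.16 for Fasn (without A2C12 and cRAF_cMYC) and 0.03 for Acly (without betaD10 and betaD5). It was 0.59 for Scd1 (without betaD5 and A2C12) and 0.54 for Elovl6 (without A2B1 and A2C12). With only the unnumbered arrays, r with Srebf1 was 0.34 for Scd1, 0.39 for Fasn, 0.11 for Acly and 0.001 for Elovl6. The relation of Srebf1 to these genes thus rests on which lines and arrays are kept. Scd2 had an r of -0.19 with Srebf1 and -0.16 with Fasn. The points share arrays and scaling, and none of these genes differed among lines by the F-test.

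**Figure D4:**
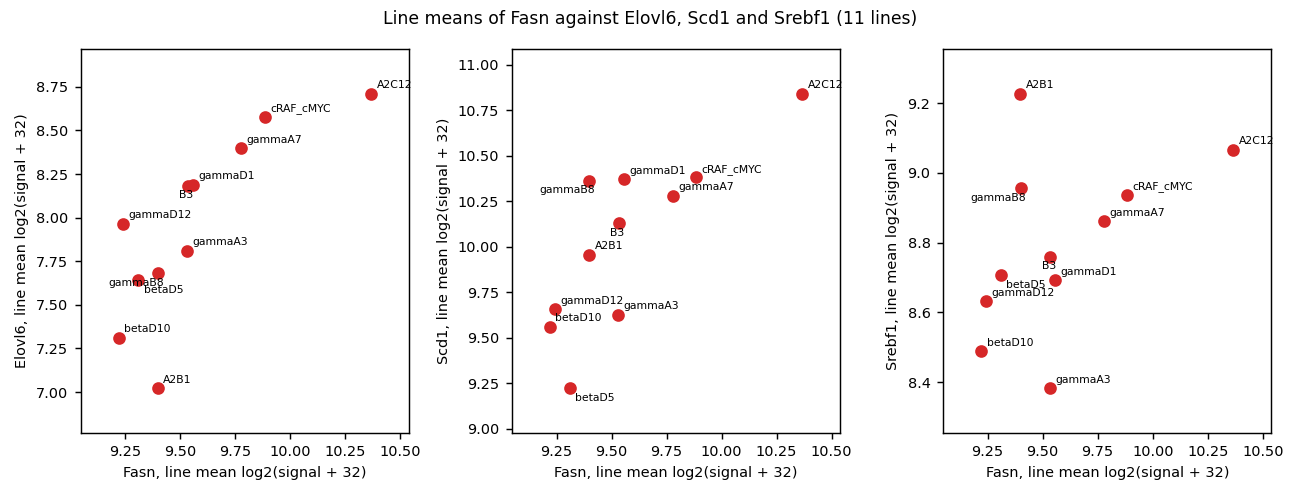
Line means of log2(signal + 32) for Fasn (x axis) against Elovl6, Scd1 and Srebf1 (y axes) in the 11 lines, each point a named line. A2C12 is highest for Fasn, Elovl6 and Scd1, and A2B1 combines the highest Srebf1 with the lowest Elovl6.

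Fabp5 ran the other way from Lpl (r = -0.66, rho -0.72) and from Srebf1 (r = -0.57, rho -0.54) over the same 11 lines; without the pair of lines farthest from the median of Lpl or of Srebf1, r was -0.58 and -0.25. Among 5824 other genes, the line means most like those of Acly, the member with the widest range, were those of Rhoc (r = 0.94), Eif2ak1 (0.94) and Dido1 (0.92). The genes most like Srebf1 were Dbnl (0.93), Mlx (0.92) and Adprm (0.92). These were picked as the highest of 5824 values over 11 points, and their size was not tested. Neither Acly (adjusted p = 0.317) nor Srebf1 (0.766) passed the F-test among lines.

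Other genes of lipid metabolism were mostly lower or not called, as most of all tested genes were, and the lists used were chosen for their roles. Of the genes named from these lists, Acss1, Pparg, Apoe, Sftpc and Sftpb were tested only because the controls were above their array's median, so their direction was set by the filter. By gene, 16.7% of 5825 tested genes were called higher and 21.3% lower, 38% in all. The share called lower was 20% for the other synthesis genes and 25% for oxidation genes, near that of all genes. It was 35.7% for regulators, 36.4% for assembly genes and 53.8% for the other uptake and binding genes. Of 10 other tested genes for fatty acid synthesis, elongation and desaturation, 0 were called higher and 2 lower, with a median log2 difference of -0.21. These were the mitochondrial acetyl-CoA synthetase Acss1 (control signals 301 and 1557, line mean 25.1 ± 7.75, log2 difference -3.70, SE 0.35) and the long-chain acyl-CoA synthetase Acsl4 (-1.43, SE 0.32). Malic enzyme Me1, a source of NADPH for synthesis, stood at 0.22 (SE 0.19) and the citrate carrier Slc25a1 at -0.19 (SE 0.19), neither called.

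Among 14 tested regulators 1 was called higher and 5 lower (median log2 difference -0.82). The transcription factor Cebpa fell from 1953 and 3036 to 56.3 ± 18.5 (-4.85, SE 0.24). Pparg, the fat cell and alveolar macrophage factor that drives Cd36, Lpl and Fabp4, fell from 245 and 151 to 17.6 ± 16.0 (-2.26, SE 0.28). Usf2, which binds E-boxes, fell by 1.85 (SE 0.15), while Mbtps1, the protease that makes the first cut in SREBP, rose by 1.30 (SE 0.25).

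Of 13 tested uptake and binding genes outside the members, 0 were called higher and 7 lower (median log2 difference -1.26). Apoe passed the filter only through the controls, and of the other 12 genes 6 were called lower. Apolipoprotein E (Apoe) fell by 6.18 (SE 0.12), lysosomal acid lipase (Lipa) by 3.41 (SE 0.31) and the fatty acid transporter Slc27a1 by 2.26 (SE 0.31). Apoe and Lipa are also abundant in macrophages.

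Of 22 tested genes that assemble phospholipid and triglyceride, or carry surfactant, 2 were called higher and 8 lower (median log2 difference -0.49). The largest falls were in the surfactant proteins Sftpc (-5.81, SE 0.57) and Sftpb (-4.63, SE 0.70). Next came the lipid droplet coat protein Plin2, from control signals of 7509 and 2773 to 778 ± 172 (-2.56, SE 0.33). Lpcat1, the acyltransferase that makes the dipalmitoyl lecithin of surfactant, gave control signals of 136 and 1206 and a line mean of 67.8 ± 10.8 (-2.21, SE 0.42). The choline pathway enzyme Pcyt1a, which sets the rate of lecithin synthesis, stood at -0.57 (SE 0.14), under 2-fold.

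Fatty acid oxidation genes were called lower in 5 and higher in 0 of 20 tested, with a median of -0.63. The carnitine palmitoyltransferases Cpt1a, which admits fatty acids to mitochondria (control signals 2171 and 1799, line mean 723 ± 200.2; -1.47, SE 0.22), and Cpt2 (-1.34, SE 0.22) were among them, with the thioesterase Acot1 (-1.37, SE 0.30). In these 5 lists limma adjusted p of the genes named as called lay under 0.05. The members' counts and medians beside these lists were not tested against each other.

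**Figure D5:**
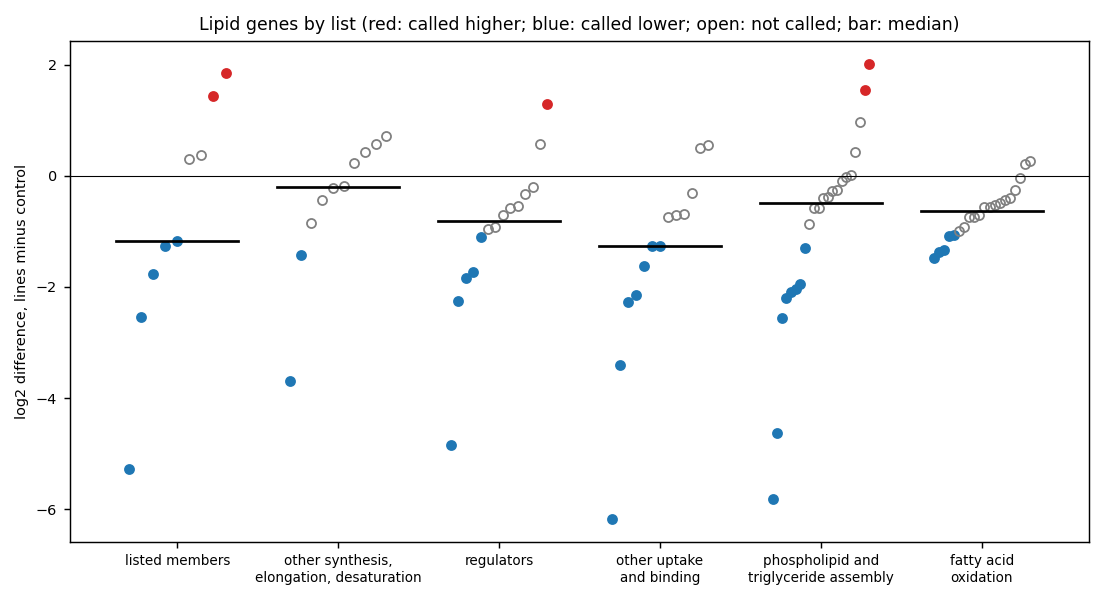
Log2 difference of lines minus control (y axis) for the 9 members and for the tested genes of the 5 other lipid lists (x axis); red points were called higher, blue points lower, open points were not called, and bars are medians. Medians run from -1.26 for the other uptake and binding genes to -0.21 for the other synthesis genes, with -1.17 for the members.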

How the data were processed

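The authors deposited 1 intensity per probe set and array, a linear signal made with GCOS (version not given), per the submitters' processing notes. After trimming 2% of probe sets at either end, mean signals are almost alike between arrays, so a difference is relative to the rest of the RNA. The 66 Affymetrix controls were left out. Of 12422 probe sets, 10833 had 1 gene symbol in the annotation, 396 had several and 1193 had none. Tested were the 7670 probe sets that exceeded the array median on 2 or more of 24 arrays. A gene stands for its brightest tested probe set.

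Line means were taken of log2(signal + 32), and 11 line means were fitted against 2 controls in limma 3.58.1 (R 4.3.3, 11 residual degrees of freedom); line contrasts and the F-test used 12 groups (12 degrees of freedom). Both fits were tested on simulated data. Named genes are all members, up to 3 called genes with the largest change per list, and the 3 most alike over line means. Cd14, Me1, Slc25a1, Mbtps1, Lpcat1, Pcyt1a, Thrsp, Fabp1, Fabp2, Fabp3, Fabp4, Fabp6 and Fabp7 were added after their values were seen. Members and lists were chosen with earlier results of these data known. The number of arrays limits the precision. Alternatives were other scalings, offsets, filters, variance models, fold thresholds, array choices and left-out lines or controls.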

Additional observations from a re-analysis of the deposited data

How the results depend on the processing

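Against 2 members called higher and 5 lower, the count called lower was 3 after centring arrays on their medians and 3 with the stricter filter, under which Lpl and Cd36 were not tested. The mean of a gene's probe sets gave 1 member called higher. At least 4-fold left 0 higher and 2 lower. Leaving out 1 line, control or array gave 1 to 2 called higher and 3 to 5 lower. The low values came without control 1 (1 higher) and without control 2 (3 lower). Fasn reversed without control 1 (-0.32, not called) and was 0.93 without control 2. The median log2 difference of all probe sets was 0.18 after quantile normalization and 0.49 after centring, against -0.05 as deposited, and over all probe sets calls were 1265 higher and 1638 lower as deposited, 1671 and 1370 after quantile normalization and 2421 and 923 after centring. Over all probe sets, 279 were higher and 568 lower at 4-fold. Elovl6 and Lpl kept their direction and call under each alternative that tested them, except Elovl6 at 4-fold. Cd36 did so too, but its direction was set by the filter. The direction of Elovl6 was favoured by the filter, which it passed through the tumour arrays alone. Member and line pairs called ranged from 50 to 66. The numbers of replicates did not pair samples across the lines in general, but they did go together in 1 pair of lines. Same-numbered deviations of different lines correlated above 0.1 in 1 of 10 pairs, where the correlation was 0.82, and reached down to -0.03. With the replicate block, 1 member (Lpl, limma adjusted p = 0.0482) passed the F-test in the 17 arrays of 6 lines and 0 in the numbered arrays of 5 lines, and under the other settings 0 passed. The cause of these shifts was not tested.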

Other observations

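Other fatty acid binding proteins, which carry lipid in gut, fat, muscle and brain, were below the filter and are given as signals only. The liver and gut form Fabp1 had a signal of 62.5 on control 1, 489 on control 2 and 10.1 on average over the lines. The adipocyte and macrophage form Fabp4 had 186 on control 1, 57.1 on control 2 and 11.2 over the lines, and the brain form Fabp7 had 86.0, 2.55 and 2.88 in that order. Fabp4 and Fabp7 were thus higher on control 1, as Fabp5 was, and Fabp1 on control 2. The hepatic synthesis regulator Thrsp had 40.6 on control 1, 72.1 on control 2 and 13.1 over the lines.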
